A study of Homo sapiens with 6 samples.

Results

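Expression of 10 genes of heme breakdown and synthesis, iron storage and transport, and ferroptosis was measured by RNA-seq in a pair of isogenic human esophageal squamous cell carcinoma (ESCC) lines. The genes were HMOX1, BLVRA, BLVRB, FECH, FTH1, FTL, TFRC, SLC40A1, AIFM2 and ACSL4, taken by symbol from a table of 58884 genes, in which each of these symbols was found. KYSE70 is an established ESCC line whose NFE2L2 gene, encoding the transcription factor NRF2, carries the W24C mutation. NRF2null-KYSE70 was grown from 1 clone of KYSE70 after CRISPR-Cas9 cutting with a guide to exon 2 of NFE2L2. Both lines were cultured in RPMI1640 with fetal bovine serum, received no treatment, and gave 3 libraries each. No label says that the libraries of a line came from separate cultures, so the p-values measure the spread between libraries, which may be technical, and no spread between clones was sampled.

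Heme is an iron-containing ring that ferrochelatase completes in the mitochondrion. Heme oxygenase opens the ring and frees the iron, and biliverdin reductases turn its product into bilirubin. Cells take up iron through the transferrin receptor, store it in a shell of ferritin heavy and light chains, and release it through ferroportin. Free ferrous iron drives the peroxidation of membrane lipids, and ferroptosis is the form of cell death that follows when such peroxides are not removed. NRF2 is known to activate several of these genes, among them HMOX1, the ferritin genes, BLVRB, FECH, SLC40A1 and AIFM2, through antioxidant response elements (ARE) in DNA.

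The libraries held between 52072801 and 63975313 reads assigned to genes, so depth differed by at most 1.23-fold. Values are normalized counts, that is, reads per gene divided by a size factor for each library. NFE2L2, the targeted gene, fell from 9928 ± 102 normalized counts in the parental line to 6093 ± 319 in the edited line (SD, n = 3 each), a log2 fold change of -0.71 with adjusted p = 9.37e-08. Its RNA was lower but still present in the edited line, and a gene-level count does not separate its transcripts. The study reports a frameshift in the edited gene, but also a faint, smaller NRF2 protein band. It states that NRF2 was not completely lost in this line. All 7 squamous epithelial markers examined were expressed in both lines. Of these, TP63, KRT5 and DSG3 fell and KRT6A, KRT17, CDH1 and SOX2 rose. Their summed level, mostly KRT5, ranged from 310545 to 317950 normalized counts in KYSE70 and from 233061 to 245112 in NRF2null-KYSE70. Summed macrophage markers ranged from 8.0 to 14.8 normalized counts in KYSE70 and from 47.7 to 68.5 in NRF2null-KYSE70, most of the latter from PTPRC, with AIF1 at 0 throughout. Endothelial and fibroblast markers summed to between 1316 and 1483 in KYSE70 and to between 752 and 1056 in NRF2null-KYSE70, with COL1A2 and DCN at 0. COL1A1 carried that fall, from 1232 ± 88.4 to 554 ± 78.9 normalized counts, whereas VWF rose from 142 ± 8.46 to 353 ± 88.8 and PDGFRB was at 0 in KYSE70 and at 14.3 ± 1.94 in NRF2null-KYSE70. The part of these marker differences in the results below was not tested.

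All 10 genes differed between the lines at an adjusted p under 0.05 (limma, adjusted over the 15994 genes that averaged 10 or more normalized counts). Fold changes are given as NRF2null-KYSE70 over KYSE70 on the scale log2(normalized count + 1). BLVRA, BLVRB, FECH, FTH1, FTL, SLC40A1 and AIFM2 were lower in NRF2null-KYSE70, and HMOX1, TFRC and ACSL4 were higher. In bulk RNA, fewer cells that express a gene and less of its RNA per cell cannot be told apart. Among all tested genes, 57.6% passed this test, 28.3% as lower and 29.3% as higher, so passing it was common in this comparison. When the log2 fold change also had to reach 1 in size, FECH and SLC40A1 remained as lower and ACSL4 as higher. The background for both requirements together was 14.7%, with 7.43% lower and 7.23% higher. In limma's treat, which asks for a log2 change beyond 0.2 in size, BLVRB, FECH, FTH1 and SLC40A1 passed as lower and TFRC and ACSL4 as higher, beside 36.5% of all tested genes, 17.8% lower and 18.7% higher. No gene of the 10 had libraries of one line that overlapped those of the other, which was true of 63.4% of all tested genes. The median log2 fold change was -0.28 over the 10 genes and -0.01 over all tested genes. SLC40A1 passed the filter on low counts only through its level in KYSE70, so its presence among the tested genes already required a difference.

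**Figure D1:**
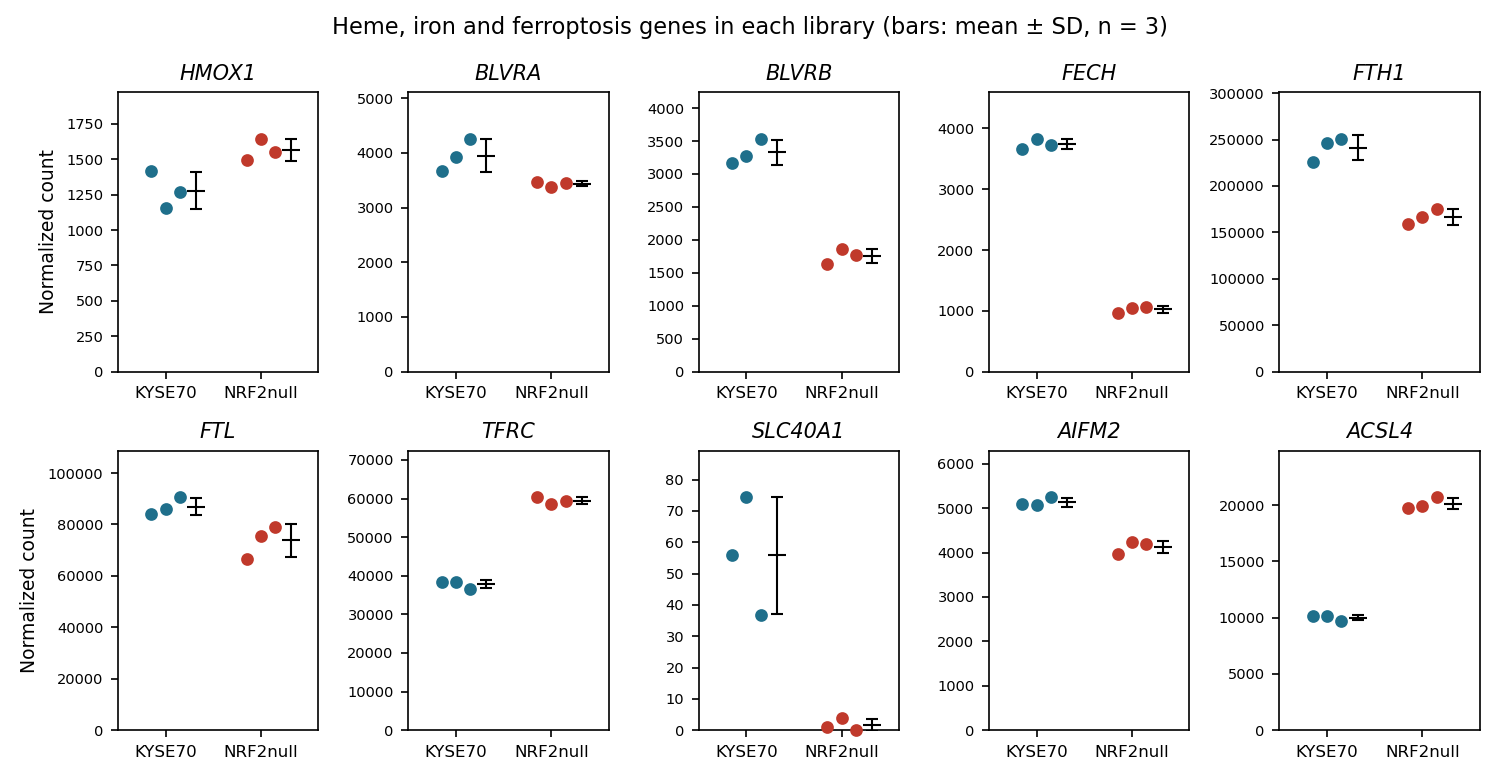
Normalized counts (vertical axes, starting at 0) of the 10 genes in the 3 libraries of KYSE70 and the 3 of NRF2null-KYSE70, with 1 point per library and bars for mean ± SD. The points of the lines do not overlap in any panel, and the gap is widest relative to the level for SLC40A1 and FECH and narrowest for BLVRA, FTL and HMOX1.

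**Figure D2:**
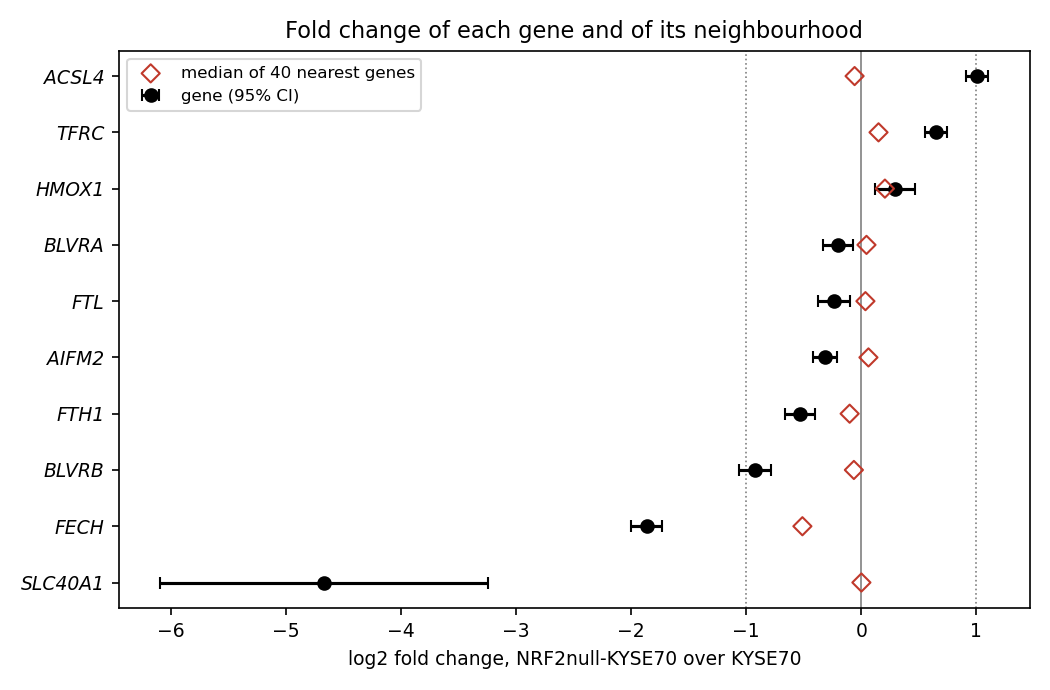
Log2 fold change (horizontal axis, NRF2null-KYSE70 over KYSE70) of each gene with its 95% confidence interval from limma, beside the median of the 40 nearest protein-coding genes that averaged 50 or more normalized counts (diamonds). Dotted lines mark log2 fold changes of -1 and 1, which FECH, SLC40A1 and ACSL4 passed, and the diamond lies inside the interval for HMOX1 alone.

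Sequence around the start of 8 of the 10 genes was given by RefSeq (GRCh38.p14), as windows of 250 bases before to 50 bases after each start; no window was at hand for HMOX1 and FTH1. The ARE core TGACNNNGC was searched on both strands, because NRF2 is known to bind it together with a small MAF protein. It was found in the windows of FECH and AIFM2, both of which were lower in NRF2null-KYSE70. No match was found in those of BLVRA, BLVRB, FTL and SLC40A1, which were also lower, or of TFRC and ACSL4, which were higher. The core was present in 4687 of all 35116 windows, or 13.3%, and no binding was measured here. In FECH the match lay on the opposite strand, 38 to 30 bases before the start, and ended in AGGTCA, a form of a nuclear receptor element. In AIFM2 it lay on the opposite strand, 22 to 14 bases before the start, and held TGAGTCA, a form of the AP-1 motif. These starts are those of RefSeq and differ from the ends of the GENCODE spans printed below for both genes. The AIFM2 match lies inside that gene's GENCODE span, and the FECH match ends on the outermost base of its span. The loop of an iron-responsive element, through which iron regulatory proteins block translation of ferritin mRNA, reads CAGTGN and was searched in the 50 transcribed bases on the gene's strand. It was present in FTL at transcript bases 39 to 44 and in 6.36% of all windows. The sequences are shown 5′ to 3′ on the strand of the gene, with the match in capitals. FECH lies on the minus strand at chr18:57586732-57586831, AIFM2 on the minus strand at chr10:70132828-70132857 and FTL on the plus strand at chr19:48965329-48965358.
FECH: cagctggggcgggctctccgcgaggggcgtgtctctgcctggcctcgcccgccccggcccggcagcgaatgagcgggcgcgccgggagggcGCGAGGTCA
AIFM2: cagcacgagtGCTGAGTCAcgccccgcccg
FTL: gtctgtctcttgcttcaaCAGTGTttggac

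The enzymes of heme breakdown moved in different directions. HMOX1, the inducible heme oxygenase (ENSG00000100292, hg38 chromosome 22, 35380361 to 35394214, plus strand), was slightly higher in NRF2null-KYSE70. It measured 1417, 1154 and 1265 normalized counts in KYSE70 and 1495, 1645 and 1550 in NRF2null-KYSE70. The lowest NRF2null-KYSE70 library lay just above the highest KYSE70 library, and the means were 1279 ± 132 and 1564 ± 76.1 (SD, n = 3). The log2 fold change was 0.29 ± 0.08 (SE), with a 95% interval of 0.12 to 0.47 and adjusted p = 0.00779. The 40 nearest genes on chromosome 22, over 5.82 Mb, had a median log2 fold change of 0.21, and 29 of them were above 0. They ranged from -7.73 to 3.22, with 23 lower and 17 higher than HMOX1. After that median was subtracted, HMOX1 was at 0.09 with adjusted p = 0.393, so its rise was not told apart from the median of its neighbourhood. The median was subtracted as a fixed value, so this p does not carry the median's own error.

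Both biliverdin reductases, which reduce biliverdin to bilirubin, fell in NRF2null-KYSE70, and by unequal amounts. BLVRB (ENSG00000090013, chromosome 19, 40447765 to 40465764, minus strand), which also reduces flavins, measured 3170, 3275 and 3537 normalized counts in KYSE70 and 1641, 1856 and 1767 in NRF2null-KYSE70. Every library of the edited line was far below every KYSE70 library, and its mean was 52.7% of the parental mean. The log2 fold change of BLVRB was -0.92 ± 0.07 (SE), with a 95% interval of -1.07 to -0.78 and adjusted p = 1.06e-07. None of its 40 neighbours, with a median of -0.06, had a lower log2 fold change. BLVRA (ENSG00000106605, chromosome 7, 43758680 to 43807342, plus strand) measured 3667, 3929 and 4262 normalized counts in KYSE70 and 3469, 3384 and 3452 in NRF2null-KYSE70. The lines came close to each other, with means of 3953 ± 298 and 3435 ± 44.9. Its log2 fold change was -0.20 ± 0.06 (SE), with a 95% interval of -0.33 to -0.07 and adjusted p = 0.012. This call was lost without KYSE70 library 3 (log2 fold change -0.14, adjusted p = 0.0689) and with limma fitted without a mean-variance trend (adjusted p = 0.0565).

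A ratio of reads within a library does not depend on the scaling between libraries. BLVRA over BLVRB rose from 1.19 ± 0.03 in the parental line to 1.96 ± 0.15 in the edited line (SD, n = 3), 1.65-fold. The groups of ratios did not overlap, and the two-sided exact permutation test over 3 against 3 libraries gave p = 0.1, the smallest it can give. Such was also the p of the other 3 ratios given below, and of all 4 after adjustment over them. Of 11 other genes of heme breakdown and transport, all tested, 5 fell and 3 rose at an adjusted p under 0.05, with a median log2 fold change of -0.17. Among all tested genes 28.3% fell and 29.3% rose, the background for this and the list counts below. SLC48A1, which carries heme out of lysosomes, rose from 7783 ± 335 to 9608 ± 188 normalized counts (log2 fold change 0.30, adjusted p = 0.000131). FLVCR1, a heme exporter, fell from 2211 ± 120 to 1889 ± 162 (-0.23, adjusted p = 0.0161). HMOX2, another heme oxygenase, was more abundant than HMOX1 in KYSE70 and fell from 2612 ± 94.6 to 1920 ± 37.1 (-0.44, adjusted p = 2.29e-05). The median of its 40 nearest genes was also -0.44, and HMOX2 is named after its value was seen.

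FECH, the ferrochelatase that inserts iron into protoporphyrin (ENSG00000066926, chromosome 18, 57544377 to 57586732, minus strand), fell by more than any other of the 10 genes apart from SLC40A1. It measured 3663, 3832 and 3729 normalized counts in KYSE70 and 957, 1053 and 1070 in NRF2null-KYSE70. The libraries within each line lay close together, and the mean of 1027 ± 60.6 in the edited line was 27.4% of the parental 3741 ± 85.3. The log2 fold change was -1.87 ± 0.06 (SE), with a 95% interval of -2.0 to -1.73 and adjusted p = 1.24e-10. The stretch of chromosome 18 around FECH was also lower. The median log2 fold change of its 40 nearest genes, over 14.5 Mb, was -0.51, with 26 of 40 below 0 and a range from -7.47 to 5.46, and 4 of them were lower than FECH. Every neighbour from RPL17, at -8.08 Mb from FECH, to NEDD4L, at 0.66 Mb, was below 0. The 14 neighbours above 0 all lay beyond NEDD4L. The median thus pools unlike stretches, and FECH was not compared with the lower stretch alone. After the median was subtracted, FECH stood at -1.35 with adjusted p = 2.2e-09.

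**Figure D3:**
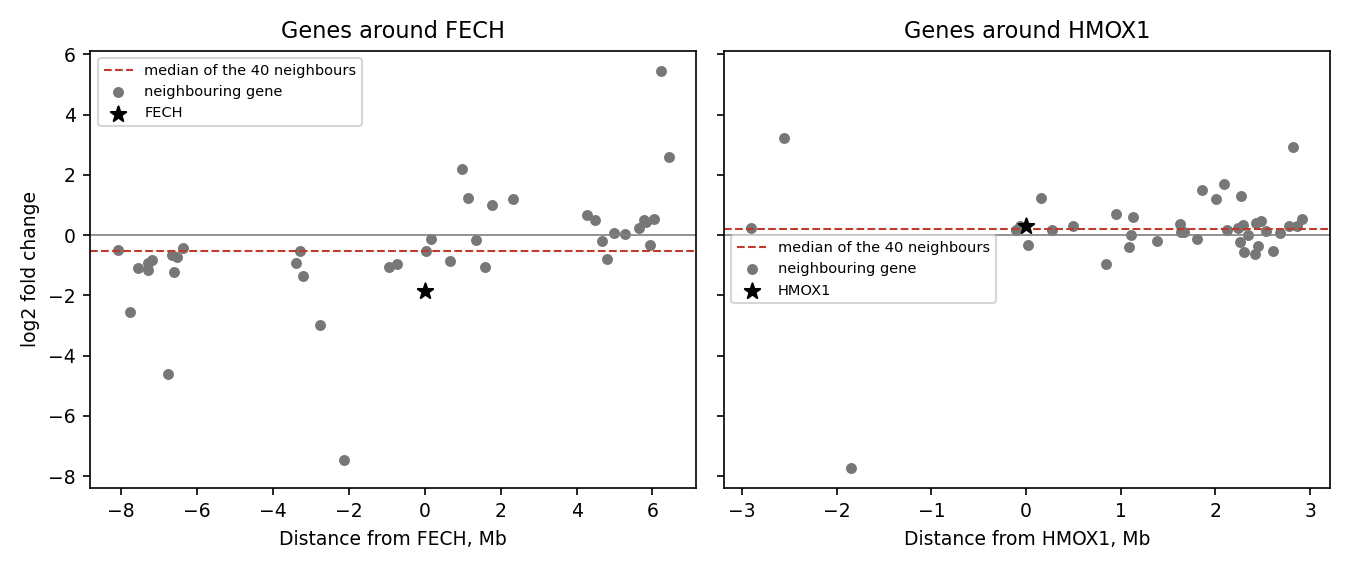
Log2 fold change (vertical axis) of the 40 nearest protein-coding genes averaging 50 or more normalized counts, against their distance in Mb from FECH (left) or HMOX1 (right), with the gene itself as a star and the median of its neighbours as a dashed line. FECH at -1.87 lies below a neighbourhood median of -0.51, whereas HMOX1 at 0.29 lies near its neighbourhood median of 0.21.

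The rest of heme synthesis showed smaller differences. Of 10 other genes on this list, 9 were tested, 3 fell, 1 rose and none passed a log2 fold change of 1 in either direction, with a median of -0.12. ALAS1, which carries out the rate-limiting step, measured 3062 ± 129 and 2853 ± 182 normalized counts, groups that overlapped (log2 fold change -0.10, adjusted p = 0.173). The genes that fell were ALAD, UROD and PPOX and the gene that rose was CLPX, a mitochondrial chaperone, named here after their values were seen. ALAD, the enzyme of the next step, fell from 1509 ± 51.2 to 981 ± 35.7 (-0.62, adjusted p = 6.19e-06). The ratio of HMOX1 to FECH reads rose from 0.342 ± 0.04 to 1.52 ± 0.07 (SD, n = 3), 4.47-fold, without overlap.

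The ferritin chains were among the most abundant transcripts of these cells, and both were lower in NRF2null-KYSE70. FTH1, the heavy chain with ferroxidase activity (ENSG00000167996, chromosome 11, 61959718 to 61967634, minus strand), ranked between 4 and 17 by normalized count in the libraries. It measured 226289, 246796 and 251031 normalized counts in KYSE70 and 158808, 166130 and 175453 in NRF2null-KYSE70. FTH1 took 0.398% to 0.441% of all reads in KYSE70 and 0.263% to 0.295% in NRF2null-KYSE70, with no overlap. Its log2 fold change was -0.53 ± 0.06 (SE), with a 95% interval of -0.66 to -0.40 and adjusted p = 8.28e-06. FTL, the light chain that promotes mineralization of the stored iron (ENSG00000087086, chromosome 19, 48965309 to 48966879, plus strand), ranked between 46 and 75. It measured 84134, 86158 and 90637 normalized counts in KYSE70 and 66751, 75695 and 79066 in NRF2null-KYSE70. The fall of FTL was smaller, to 84.9% of the parental mean against 69.1% for FTH1, and the groups were separated by a small gap. Its log2 fold change was -0.24 ± 0.06 (SE), with a 95% interval of -0.38 to -0.10 and adjusted p = 0.00591, a call lost with limma fitted without the trend (adjusted p = 0.0531).

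The ratio of FTH1 to FTL reads fell from 2.77 ± 0.09 in the parental line to 2.26 ± 0.10 in the edited line (SD, n = 3), a log2 difference of -0.29 without overlap. Per kilobase of annotated exon, the chains stood at 120445 ± 6603 (FTH1) and 99858 ± 3820 (FTL) normalized counts in KYSE70. In NRF2null-KYSE70 they stood at 83232 ± 4163 and 84773 ± 7307. On this scale the heavy chain exceeded the light chain beyond the spread in the parental line and not in the edited line. The exon lengths used, 2004 bases for FTH1 and 871 for FTL, count all isoforms together. Which chain exceeds the other depends on these lengths, whereas the fall of the read ratio does not. Ferritin genes have processed copies that can share reads. The 25 listed FTH1 pseudogenes summed to 0.239% of the FTH1 count in KYSE70 and 0.243% in NRF2null-KYSE70, and the 16 listed FTL pseudogenes to 0.0553% and 0.0699% of FTL. Adding their counts left the FTH1 and FTL log2 fold changes at -0.53 and -0.24, which sums this small could hardly move. How reads that align to both a gene and its copies were counted is not given, so such reads may be in neither count. FTH1 also shares 1267 of its 2004 exon bases with BEST1 on the opposite strand, whose mean of 417 normalized counts was small beside that of FTH1. Whether the counting used strand is not given in the sources used here, so the BEST1 count does not show how reads in the shared bases were assigned. The part of this overlap in the FTH1 levels and ratios was not tested. NCOA4, the receptor that delivers ferritin to lysosomes, fell slightly, from 15857 ± 248 to 14556 ± 694 (log2 fold change -0.12, adjusted p = 0.0391). Of 6 other genes of iron storage and release, NCOA4 included, 4 were tested, of which 3 fell and 1 rose, with a median of -0.14.

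TFRC, for iron uptake, and SLC40A1, for iron export, moved in opposite directions. The further genes tested mostly did not share these directions: 4 of 5 uptake genes fell, 1 rose, and the 1 export gene, CP, rose. Of those that fell, SLC39A8 passed the filter on low counts only through KYSE70, so its presence already required a difference. STEAP3, also among them, had libraries that overlapped between the lines (adjusted p = 0.0467). CP had only 18, 23 and 28 reads in the KYSE70 libraries. TFRC, the transferrin receptor (ENSG00000072274, chromosome 3, 196012511 to 196082153, minus strand), measured 38476, 38441 and 36642 normalized counts in KYSE70 and 60373, 58536 and 59348 in NRF2null-KYSE70. The edited line was higher in every library, at 157% of the parental mean. The log2 fold change of TFRC was 0.65 ± 0.04 (SE), with a 95% interval of 0.55 to 0.75 and adjusted p = 7.82e-08, and 37 of its 40 neighbours, with a median of 0.15, had a lower one. Relative to FTH1, TFRC reads rose from 0.157 ± 0.01 to 0.357 ± 0.02 (SD, n = 3), 2.27-fold, without overlap.

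SLC40A1, the iron exporter ferroportin (ENSG00000138449, chromosome 2, 189560590 to 189583758, minus strand), was weakly expressed in KYSE70 and close to the limit of detection in NRF2null-KYSE70. It measured 56.0, 74.4 and 36.9 normalized counts in KYSE70, from 63, 82 and 35 reads. The NRF2null-KYSE70 libraries held 1, 4 and 0 reads, that is, 1.01, 3.92 and 0 normalized counts. With 180 reads against 5 over each line, corrected for size factors, SLC40A1 was 32.7-fold lower, with an exact 95% counting interval of 13.7 to 102 that covers counting error only. On the log2(normalized count + 1) scale its change was -4.67 ± 0.66 (SE) with adjusted p = 5.09e-05, a size that depends on the pseudocount and ran from -6.13 with 0.1 to -3.19 with 5.

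**Figure D4:**
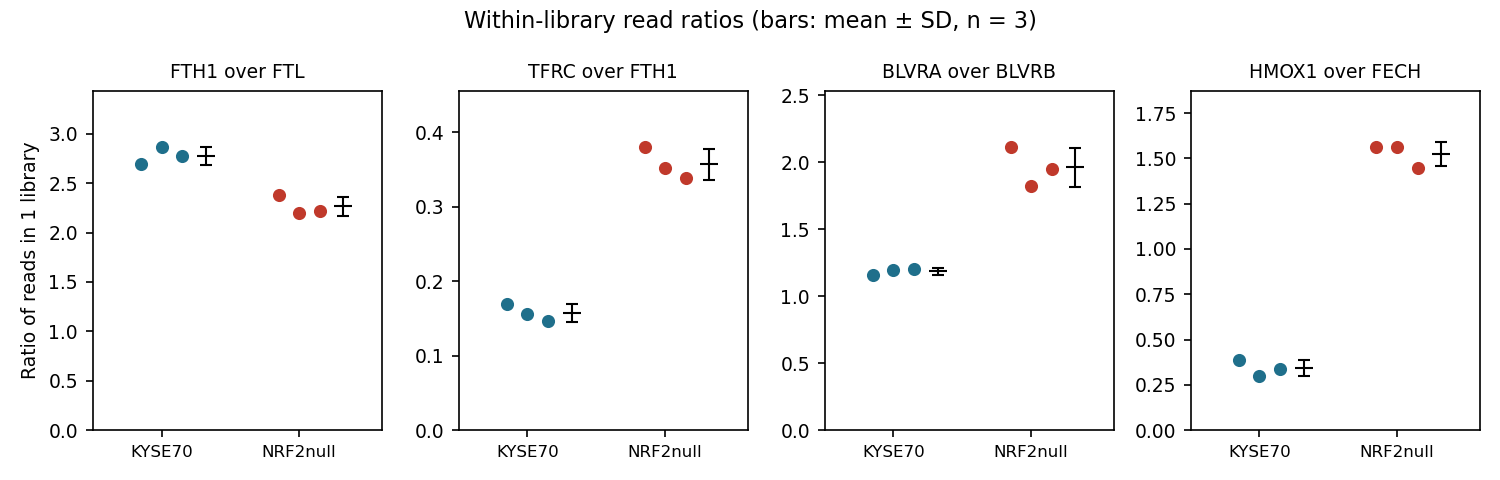
Ratio of reads of 2 genes within 1 library (vertical axes, starting at 0), for FTH1 over FTL, TFRC over FTH1, BLVRA over BLVRB and HMOX1 over FECH, with 1 point per library and bars for mean ± SD. The ratio fell in NRF2null-KYSE70 for FTH1 over FTL and rose for the other 3, up to 4.47-fold for HMOX1 over FECH, without overlap between the lines.

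Other genes of iron handling were fewer in the tested set. Of 10 further uptake genes, 5 were tested, 4 fell and 1 rose, with a median of -0.55. SLC39A8, a zinc and iron importer, fell from 146 ± 17.6 to 1.42 ± 1.24 normalized counts and LCN2, a siderophore carrier, from 133 ± 13.8 to 32.6 ± 14.4. Both passed the fold cut-off, averaged under 100 normalized counts, and are named after their values were seen. SLC39A8, with 0, 2 and 2 reads in the NRF2null-KYSE70 libraries, passed the filter on low counts only through KYSE70. The uptake gene that rose, SLC39A14, was far more abundant and went from 13522 ± 498 to 18751 ± 666 (0.47, adjusted p = 2.69e-06), also named afterwards. Of 3 further export genes, CP, the ferroxidase ceruloplasmin, was tested and rose from 22.1 ± 6.85 to 84.0 ± 13.5, likewise named afterwards. Of 7 iron sensing genes, 5 were tested, of which 3 fell and 1 rose, with a median of -0.14. Iron regulatory proteins raise TFRC mRNA stability and block ferritin translation when iron is scarce. Their RNA differed little between the lines, and their protein and activity were not measured here. IREB2 measured 12180 ± 268 and 12780 ± 365 normalized counts (log2 fold change 0.07, adjusted p = 0.205), and ACO1 fell from 4350 ± 64.4 to 3940 ± 113 (-0.14, adjusted p = 0.0239). FBXL5, which marks IREB2 for degradation when iron is plentiful, rose from 2783 ± 104 to 3167 ± 252 (0.18, adjusted p = 0.0287). BMP6, a ligand that induces hepcidin in the liver, fell from 1122 ± 72.1 to 374 ± 68.5 (-1.59, adjusted p = 1.87e-07). On the list of mitochondrial iron and iron-sulfur assembly, 13 of 14 genes were tested, 5 fell and 2 rose, with a median of -0.05.

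**Figure D5:**
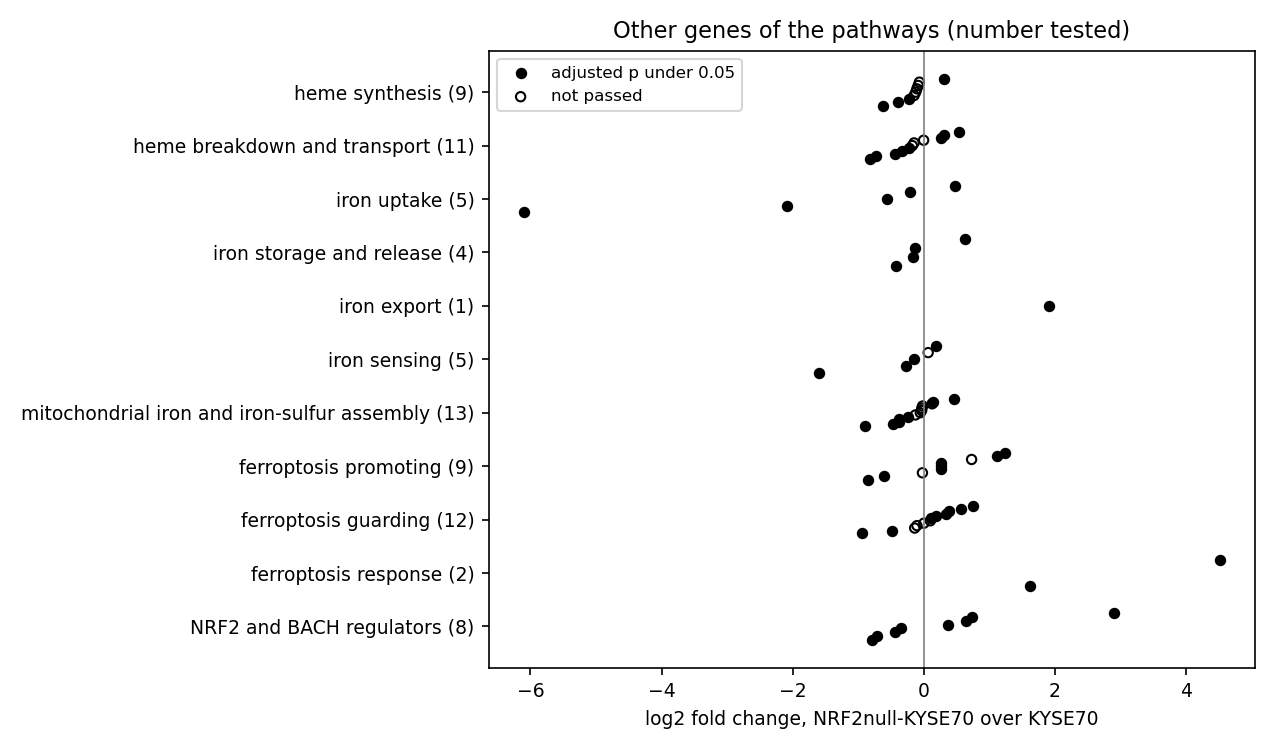
Log2 fold change (horizontal axis, NRF2null-KYSE70 over KYSE70) of the tested genes on 11 lists of related pathways, with 1 point per gene, filled where the adjusted p was under 0.05, and the number of tested genes in parentheses. Most genes lie between -1 and 1, and PTGS2 at 4.52, MAFF at 2.91 and SLC39A8 at -6.10, which passed the filter on low counts only through KYSE70, stand farthest out on their lists.

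The genes that set sensitivity to ferroptosis differed in direction from each other. AIFM2, also called FSP1 (ENSG00000042286, chromosome 10, 70098223 to 70132934, minus strand), regenerates the lipid antioxidant ubiquinol and guards against ferroptosis. It measured 5083, 5066 and 5247 normalized counts in KYSE70 and 3971, 4225 and 4186 in NRF2null-KYSE70. All 3 libraries of the edited line were lower, at 80.4% of the parental mean. The log2 fold change of AIFM2 was -0.31 ± 0.05 (SE), with a 95% interval of -0.42 to -0.21 and adjusted p = 0.000125. AIFM2 shares 986 of its 5135 exon bases with MACROH2A2 (H2AFY2 in the table) on the opposite strand. That gene fell as well, from 3189 ± 191 to 2573 ± 46.2 (log2 fold change -0.31, adjusted p = 0.000579), and whether the counting used strand is not given in the sources used here, so reads in the shared bases cannot be told apart.

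ACSL4 (ENSG00000068366, chromosome X, 109624244 to 109733403, minus strand) loads polyunsaturated fatty acids into membrane lipids and so provides the substrate for peroxidation. It measured 10168, 10111 and 9735 normalized counts in KYSE70 and 19759, 19941 and 20714 in NRF2null-KYSE70. The edited line stood at 201% of the parental mean, with libraries of each line within a narrow range. Its log2 fold change was 1.01 ± 0.04 (SE), with a 95% interval of 0.91 to 1.10 and adjusted p = 1.3e-09, higher than that of all 40 neighbours, whose median was -0.06. The value sits on the fold cut-off of 1 and fell under it with TMM (0.997), total (0.93) or quantile (0.88) scaling and without KYSE70 library 3 or NRF2null-KYSE70 library 3 (0.99 each), while the adjusted p kept passing.

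Of 13 further genes that promote ferroptosis, 9 were tested, 2 fell and 5 rose, with a median of 0.26. SAT1, a polyamine acetyltransferase linked to lipid peroxidation, rose from 6380 ± 182 to 15122 ± 858 normalized counts (log2 fold change 1.24, adjusted p = 7.44e-10). ALOXE3, an epidermal lipoxygenase, rose from 95.6 ± 12.2 to 209 ± 28.7 (1.12, adjusted p = 0.000168). On the list of 12 guarding genes, all tested, 2 fell and 6 rose, with a median of 0.11 and none past the fold cut-off. GPX4, the peroxidase that removes lipid peroxides, rose from 14031 ± 380 to 16074 ± 912 (0.19, adjusted p = 0.00543). SLC7A11, the cystine importer, fell from 14267 ± 939 to 10187 ± 840 (-0.49, adjusted p = 3.33e-05). The other guarding gene that fell was NQO1, a quinone reductase and classical NRF2 target, from 48757 ± 1598 to 25558 ± 1561 (-0.93, adjusted p = 1.43e-08), named after its value was seen. Besides GPX4, the guarding genes that rose were SLC3A2 (0.76, adjusted p = 4.48e-08), GCH1 (0.57, adjusted p = 1.11e-05), SCD (0.38), DHODH (0.34) and PRDX6 (0.12), likewise named afterwards. SLC3A2 went from 30029 ± 898 to 50897 ± 2396 normalized counts. Both genes used as markers of a ferroptotic response rose. PTGS2, which encodes cyclooxygenase and is also an inflammatory gene, went from 98.1 ± 11.3 to 2267 ± 110 (4.52, adjusted p = 7.04e-12), and CHAC1, a glutathione-degrading enzyme that is also a stress-response gene, from 1039 ± 65.0 to 3206 ± 61.6 (1.63, adjusted p = 5.13e-10).

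On the list of NRF2 and BACH regulators, which held NFE2L2, its inhibitor KEAP1 and related transcription factors, all 8 genes were tested, 4 fell and 4 rose, with a median of 0.01. BACH1, the heme-sensing repressor of HMOX1 and ferritin genes, fell from 2933 ± 70.9 to 2178 ± 62.5 normalized counts (log2 fold change -0.43, adjusted p = 2.14e-05). MAFF, a small MAF protein that pairs with NRF2 and BACH1, rose from 314 ± 7.66 to 2369 ± 121 (2.91, adjusted p = 1.65e-11). Across all 11 lists, 79 of 96 genes were tested, 31 fell and 27 rose, 3 fell and 6 rose past the fold cut-off, and the median was -0.08. Among all tested genes 28.3% fell and 29.3% rose, and 7.43% fell and 7.23% rose past the fold cut-off.

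Levels of different genes were compared per kilobase of annotated exon, a length that counts the exons of all isoforms together and so lowers the figure for genes with many of them. In KYSE70 the ferritin chains led, and TFRC at 2178 ± 60.4, BLVRA at 2171 ± 164 and BLVRB at 2063 ± 117 normalized counts per kilobase came next without differing beyond their spread. ACSL4 at 1003 ± 23.6 and AIFM2 at 999 ± 19.5 were likewise not separated, and HMOX1 at 554 ± 57.2, FECH at 336 ± 7.67 and SLC40A1 at 13.2 ± 4.44 closed the order. In NRF2null-KYSE70, TFRC followed the ferritin chains at 3420 ± 53.0, with ACSL4 at 2020 ± 50.8 and BLVRA at 1886 ± 24.7 behind it. BLVRB at 1088 ± 67.0, AIFM2 at 804 ± 26.7, HMOX1 at 678 ± 33.0, FECH at 92.3 ± 5.44 and SLC40A1 at 0.390 ± 0.48 completed the order, each apart from the next beyond its spread. The size of change within the set also varied widely. In absolute log2 fold change, FECH exceeded 93.9% of all tested genes, ACSL4 83.8% and BLVRB 81.7%, whereas HMOX1, FTL and BLVRA exceeded 42.6%, 36.2% and 31.2%.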

How the data were processed

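RNA-seq libraries were made from total RNA of KYSE70 and NRF2null-KYSE70 (n = 3 each). Per the study's methods and the submitters' processing notes, reads were aligned with STAR 2.6.90c to hg38 (mm10 is also listed), counted per gene with featureCounts 1.5.1 and normalized with DESeq2; FastQC 0.11.5 and cutadapt 1.12 are listed too. The use of strand and of reads with several alignments is not given in the sources used here. The deposited values are a signal, the authors' normalized counts, identified by Ensembl IDs although the methods name RefSeq. Whole reads were recovered by dividing by the value of 1 read, 0.889 to 1.14, and 100% of values came out whole within 0.1.

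Replicate numbers are absent from the columns, which carry the line's name alone; libraries are therefore numbered by their place in the table. Differences were tested two-sided with limma 3.58.1 in R 4.3.3 (lmFit, eBayes with trend) on log2(normalized count + 1) for genes with a mean of at least 10, with Benjamini-Hochberg adjustment over the 15994 genes tested. On the recovered reads, edgeR 4.0.16 called 2350 and DESeq2 1.42.0 called 2341 genes past an adjusted p of 0.05 and an absolute log2 fold change of 1, and limma called 2344. These thresholds were the study's. Gene positions and exon lengths came from GENCODE v44 on hg38, which held 58472 of the 58884 IDs, and start-site windows from RefSeq. Named genes were the 10 members, 11 fixed genes of the pathway lists, and up to 3 genes per list past both thresholds with the largest change and a mean of at least 100; others were named after their values were seen. The members and lists were chosen with earlier results of these data known. Alternatives were other pseudocounts, filters, scalings, variance models, tools and thresholds, each library left out in turn, pseudogene counts added and, chosen after seeing the data, subtraction of the median of the 40 nearest genes. A further list of cell type markers is not reported here.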

Additional observations from a re-analysis of the deposited data

How the results depend on the processing

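The 10 genes kept their direction under all 17 to 19 alternatives run for each. Neighbour-centring, chosen after seeing the data, moved HMOX1 to 0.088 (adjusted p = 0.393). Limma without the trend gave BLVRA -0.20 (adjusted p = 0.0565) and FTL -0.24 (adjusted p = 0.0531). With 1 library left out at a time, BLVRA ran from -0.25 to -0.14, the latter without KYSE70 library 3 (adjusted p = 0.0689). The count of the 10 genes that passed was 3 with a log2 fold change of at least 1 required and 6, of which 4 lower and 2 higher, with limma's treat against 0.2, which 36.5% of all tested genes passed. The count over all genes, 2344, became 1511 with a filter at a mean of 50, where fewer genes were tested and SLC40A1 was not, and 9206 without the fold cut-off. The cause of the other changes was not tested. Total scaling shifted the median of all genes by -0.08. The count of other pathway genes, 58, varied between 47 and 62 over the alternatives.

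No paired analysis was possible because the columns carry no replicate numbers, so a replicate block was not run. Centring on chromosome arms was not run because the reference used here gives no arms. Depth limits SLC40A1, which had 5 reads in NRF2null-KYSE70.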
